A study of Arabidopsis thaliana with 18 samples.

Results

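The 10 genes described here build suberin, the waxy polyester of root barriers. They were taken by their locus identifiers as a named set: GPAT5, ASFT, CYP86A1, CYP86B1, FAR1, FAR4, FAR5, KCS2, KCS20 and ABCG20. The set was selected on its root tip values in the contrast of tcx2 with WT, so those values are given as a description with no test. All 10 were found among the 33201 entries of the root tip table and among the 33560 genes of the sorted cell table. RNA-Seq covered 6 groups of 3 biological replicates, 18 samples in all, from Arabidopsis thaliana seedlings at 5 days. One comparison set root tips of the tcx2 mutant against WT root tips. TCX2 (AT4G14770) is a CXC-domain transcription factor, and the comparison asked which transcripts depend on it. WT was Col-0, and the root tip mutant was the knockout allele tcx2-3. About 1 mm of root was cut per the labels, while the study's methods give a longer piece, and either mixes all tip cell types. The remaining 4 groups held GFP-positive cells, sorted from protoplasted roots of tcx2 plants crossed to the markers CYCD6:GFP (cortex-endodermis initials), FEZ:FEZ-GFP (epidermis and lateral root cap initials), TMO5:3xGFP (xylem initials) or WOX5:GFP (quiescent center). These crosses used tcx2-2, a knockdown, or tcx2-3, and which group carried which was not given. All 4 sorted groups carried a tcx2 mutation, and sorted WT cells were not analysed here, so the sorted data compare populations within the mutant only.

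Suberin is laid down on the endodermal cell wall after the Casparian strip has formed, mostly shootward of the tip, and it limits the uncontrolled passage of water and ions. Its aliphatic part is made from very-long-chain fatty acids, which are elongated, oxidized or reduced to alcohols, joined to glycerol, esterified with ferulate and exported to the wall. Related enzymes from the same families make cutin in the shoot epidermis.

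Both tables gave FPKM, the number of fragments scaled to transcript length and to the total mapped, so levels can be set beside each other between genes of 1 table. The root tip table held 1 FPKM value per genotype with an interval whose confidence level was not stated, and no values of single replicates. The bounds of low genes were often whole multiples of a step. Such a step was found in 3487 of the 5029 genes under 5 FPKM whose lower bounds were above 0. If 1 step is 1 fragment, the interval widths of these genes were close to 4 square roots of the fragment number (median ratio 1.06, quartiles 0.963 and 1.17), which is the width that counting error gives. Whether they also hold the spread between the replicates was not tested. TCX2 itself was at 1.29 FPKM in WT and 0.303 in tcx2, with separate intervals. In the sorted libraries, FPKM summed to between 551518 and 862385, and a pair of ribosomal RNA genes took 78.1% to 85.9% of it. Between 14878 and 22170 genes were above 0. Read totals and depth are unknown for the sorted libraries. The reporter gene was highest under its own label in 1 of the 4 sorted groups, FEZ:FEZ-GFP, where FEZ was at 2.9, 0.949 and 0.347 FPKM. FEZ was also at 0.702, 0.917 and 0.408 FPKM in the libraries labelled TMO5:3xGFP, so these groups overlapped. CYCD6;1 was at 0 in all 3 libraries labelled CYCD6:GFP and at most 0.315 elsewhere, in FEZ:FEZ-GFP library 2. TMO5 was highest in the libraries labelled WOX5:GFP (3.75, 0.391 and 0.782 FPKM), against 0, 0.206 and 0 under its own label. WOX5 was at 0 in all 3 libraries labelled WOX5:GFP and at 1.49, 0.997 and 0 in those labelled TMO5:3xGFP. Sorted groups are therefore written below as libraries labelled with a marker.

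The upstream sequences of 4 genes are shown because their root tip values mark the ends of the set. CYP86B1 and GPAT5 were the members whose WT and tcx2 intervals were separate, and KCS2 and KCS20 are close paralogs whose values differed in opposite directions. Each is the 250 bases before the gene start in RefSeq (TAIR10.1), read 5′ to 3′ on the gene's strand. These starts lie upstream of the gene starts in the deposited table. A set of 4 motifs was searched on both strands: TTTGAA, like the element that CXC-domain proteins bind in animals, ACCTAC and ACCAAAC, elements of the kind that MYB factors bind, and ACGTG, the core of the abscisic acid response element. Capitals mark matches. The windows are chr5:7805969-7806218 (minus strand) for CYP86B1, chr3:3595444-3595693 (plus) for GPAT5, chr1:1122787-1123036 (minus) for KCS2 and chr5:17585273-17585522 (plus) for KCS20.
CYP86B1: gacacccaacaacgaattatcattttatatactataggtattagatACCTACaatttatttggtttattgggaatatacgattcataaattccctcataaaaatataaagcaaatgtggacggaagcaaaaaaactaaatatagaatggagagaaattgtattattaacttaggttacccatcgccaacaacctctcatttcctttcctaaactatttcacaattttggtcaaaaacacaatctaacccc
GPAT5: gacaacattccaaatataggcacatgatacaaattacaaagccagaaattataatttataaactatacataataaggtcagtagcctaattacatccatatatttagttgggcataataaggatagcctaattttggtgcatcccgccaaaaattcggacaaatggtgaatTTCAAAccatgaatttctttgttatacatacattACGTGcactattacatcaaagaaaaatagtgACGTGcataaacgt
KCS2: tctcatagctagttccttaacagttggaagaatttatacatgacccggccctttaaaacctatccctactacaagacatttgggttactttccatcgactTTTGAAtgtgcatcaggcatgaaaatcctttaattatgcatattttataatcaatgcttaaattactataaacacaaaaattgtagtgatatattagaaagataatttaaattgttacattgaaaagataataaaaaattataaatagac
KCS20: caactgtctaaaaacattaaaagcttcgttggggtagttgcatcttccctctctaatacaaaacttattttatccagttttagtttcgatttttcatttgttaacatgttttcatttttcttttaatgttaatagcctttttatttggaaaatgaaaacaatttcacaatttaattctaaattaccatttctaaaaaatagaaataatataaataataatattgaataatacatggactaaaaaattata

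CYP86B1 held ACCTAC at -204 to -199, counted from the gene start. GPAT5 held ACGTG at -45 to -41 and at -14 to -10, and TTTGAA at -79 to -74 on the opposite strand, where it reads TTCAAA. KCS2 held TTTGAA at -150 to -145, and KCS20 held none of the 4 motifs. Over the 10 genes, TTTGAA was in the windows of 4 (GPAT5, CYP86A1, KCS2 and ABCG20), against 38.8% of 27443 windows of the same length. ACGTG was in 3 (GPAT5, FAR1 and FAR4), against 22.9%. ACCTAC was in 1, against 4.6%, and ACCAAAC was in none, against 8.29%. ASFT and FAR5 held none of the 4 motifs either.

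In root tips, 9 of the 10 genes were lower in tcx2 than in WT and KCS20 was higher, where 50.7% of the 22261 genes above 0 in a genotype, and 49.6% of those that reached 1 FPKM, were lower. The median log2 ratio of FPKM + 1 was -0.33 for the set, against 0.00 for the 17465 genes with at least 1 FPKM in a genotype. This scale understates the change of low genes, and 4 of the 10 were below 1 FPKM in both genotypes (GPAT5, CYP86A1, FAR1 and FAR4). Of the 6 that reached 1 FPKM, CYP86B1 had separate intervals, and 0.321% of the tested genes were called lower in this way and 0.0401% higher. Without the minimum of 1 FPKM, GPAT5 joined it, against 0.175% of all entries lower and 0.0241% higher. Of these 6, 3 were lower by a fold over 1.5 on this scale (CYP86B1, FAR5 and KCS2), against a background of 1.83% lower and 0.79% higher. That background was not matched for level, and these 3 were at 1.39, 1.07 and 4.46 FPKM in WT. With a pseudocount of 5 none of the 3 passed this fold (log2 ratios -0.25, -0.18 and -0.46), and with quantile normalization FAR5 did not (-0.56). Since root tip values of these data were known when the set was proposed, these counts describe it and support nothing further. In bulk tissue, fewer cells that express a gene and less RNA per cell cannot be told apart.

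The levels of the 10 genes spanned a wide range in WT. KCS20 and ASFT stood at 69.0 and 66.1 FPKM and made up 93.1% of the sum over the set. Their intervals overlapped each other and lay above those of the other 8. Below them came KCS2 (4.46), ABCG20 (1.92), CYP86B1 (1.39), FAR5 (1.07), GPAT5 (0.452), FAR4 (0.362), CYP86A1 (0.288) and FAR1 (0.0237), and each of these had an interval that overlapped that of the next in order. The sum over the set was 145 FPKM in WT and 139 in tcx2. Without KCS20 and ASFT, the other 8 summed to 9.97 FPKM in WT and 4.57 in tcx2. KCS2, whose wide intervals overlapped and whose locus also spans AT1G04210, made up 4.46 and 1.89 FPKM of these sums.

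**Figure D1:**
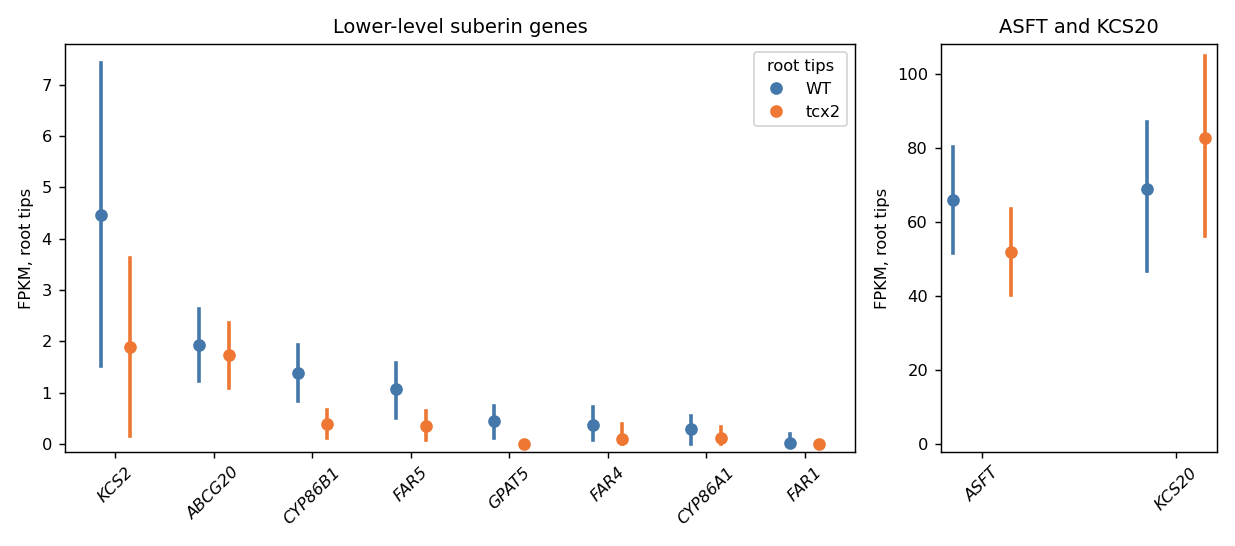
FPKM of the 10 suberin genes in root tips (vertical axes, linear), with the 8 lower genes on the left and ASFT and KCS20 on the right. Points are the deposited values of WT (blue) and tcx2 (orange) and bars the deposited intervals, which are separate for CYP86B1 (1.39 against 0.385 FPKM) and GPAT5 (0.452 against 0), while KCS20 alone is higher in tcx2.

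Elongation starts with the 3-ketoacyl-CoA synthases KCS2 and KCS20, which lengthen fatty acids toward the very-long-chain forms used in suberin and act redundantly in root suberin. KCS2 (AT1G04220, chromosome 1, 1114405 to 1122526, a locus that also spans AT1G04210 in the table) was at 4.46 FPKM in WT (interval 1.51 to 7.42) against 1.89 in the mutant (0.151 to 3.63), and the log2 ratio was -0.92. This was the lowest ratio of the set with 1 added, but the wide intervals overlapped. The rank depended on the pseudocount. With 0.1 added, GPAT5 (-2.46), CYP86B1 (-1.62), FAR5 (-1.36) and FAR4 (-1.26) were all below KCS2 (-1.20). KCS20 (AT5G43760, chromosome 5, 17585763 to 17588597) was at 69.0 FPKM in WT (46.8 to 87.2) against 82.7 in the mutant (56.4 to 105), giving a log2 ratio of 0.26 with overlapping intervals. By value the paralogs thus differed in opposite directions, and KCS20 was the more abundant in both genotypes. Their transcripts were 79.9% identical with a longest shared run of 53 bases, and no stretch of 100 bases, the read length, was the same in both. KCS1, a further synthase of this family, was at 23.6 FPKM in WT and 24.0 in tcx2.

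The ω-hydroxylases CYP86A1 and CYP86B1 oxidize the end of the acyl chain, CYP86A1 on long chains and CYP86B1 on very long ones. CYP86B1 (AT5G23190, chromosome 5, 7803141 to 7805815) was at 1.39 FPKM in WT (0.827 to 1.93) against 0.385 in the mutant (0.11 to 0.661), an FPKM ratio of 3.61 and a log2 ratio of -0.79 with 1 added. The lower bound in WT was above the upper bound in tcx2. If 1 step in its bounds is 1 fragment, the values stand for 25.3 fragments in WT and 6.99 in tcx2. With RefSeq transcript lengths, this reading implies a total of 7802588 fragments from CYP86B1 and 3231419 from KCS2, so it may not hold for every gene. CYP86A1 (AT5G58860, chromosome 5, 23765814 to 23768049) was barely detected, at 0.288 FPKM (0 to 0.538) in WT and 0.115 (0 to 0.337) in tcx2. The intervals overlapped. CYP86B2, the closest paralog of CYP86B1 with 78.2% identity, was at 0.317 FPKM (0.0669 to 0.602) in WT and 0.0571 (0 to 0.134) in tcx2. CYP86A4, the listed gene closest to CYP86A1 with 66.1% identity, was at 0.215 FPKM (0 to 0.443) in WT and 0.138 (0 to 0.332) in tcx2.

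GPAT5, the acyltransferase that joins suberin acyl chains to glycerol, is at AT3G11430 on chromosome 3, 3595765 to 3597952. Its WT value was 0.452 FPKM (0.124 to 0.745), while tcx2 was listed at 0. Its tcx2 interval is also listed as 0 to 0, so any WT lower bound above 0 makes the intervals separate, and no fold is given. Its paralog GPAT7 was at 0.236 FPKM in WT and 0.0349 in tcx2, with overlapping intervals.

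FAR1, FAR4 and FAR5 are fatty acyl-CoA reductases that make the primary alcohols of suberin. FAR4 (AT3G44540) and FAR5 (AT3G44550) are neighbors on chromosome 3, at 16124021 to 16127954 and 16138017 to 16141546. FAR5 was at 1.07 FPKM in WT (0.502 to 1.58) against 0.358 in the mutant (0.0717 to 0.645), a ratio of 3.0 between genotypes and a log2 ratio of -0.61. Its WT lower bound lay below its tcx2 upper bound, so the intervals overlapped. FAR4 was at 0.362 FPKM in WT (0.0786 to 0.722) and 0.0923 in tcx2 (0 to 0.393), also overlapping. FAR1 (AT5G22500, chromosome 5, 7470443 to 7474120) had 0.0237 FPKM in WT (0 to 0.202), and tcx2 was listed at 0. All 3 reductases were thus lower in tcx2 by value and none had separate intervals. FAR8, 84.8% identical to FAR5 in transcript sequence, was listed at 0 in both genotypes.

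ASFT, the feruloyltransferase that adds the aromatic ester to ω-hydroxy acids, is at AT5G41040 on chromosome 5, 16431374 to 16433305. It was at 66.1 FPKM in WT (51.7 to 80.4) against 51.9 in the mutant (40.3 to 63.6), a log2 ratio of -0.34 with overlapping intervals. Its paralog FACT, 64.9% identical, was higher in tcx2 by value, at 0.28 FPKM (0 to 0.64) in WT and 0.491 (0.08 to 0.88) in tcx2. The FACT intervals overlapped. ABCG20, a transporter of the ABC family needed for suberin barriers, is at AT3G53510 on chromosome 3, 19837209 to 19839862. It differed little, at 1.92 FPKM in WT (1.22 to 2.62) and 1.73 in tcx2 (1.08 to 2.35). Its paralog ABCG2 was at 0.492 and 0.522 FPKM.

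The neighbors of these genes in the pathway gave a mixed picture in root tips. Of 10 other suberin genes, 4 reached 1 FPKM, 1 had separate intervals, and the median log2 ratio was -0.10. The separate one was ABCG6, a further suberin transporter, at 2.14 FPKM in WT (1.19 to 2.86) and 0.247 in tcx2 (0.0477 to 0.429). LTPG15, a lipid transfer protein with a role in suberin export, was at 94.6 FPKM in WT and 57.5 in tcx2, past the fold of 1.5, but its tcx2 value lay outside its own interval of 29.4 to 54.9. Of 11 cutin genes, 4 reached 1 FPKM and 2 had separate intervals, both lower in tcx2. These were the glycerol acyltransferase GPAT4, at 7.17 FPKM in WT (4.77 to 9.29) and 2.14 in tcx2 (1.29 to 3.03), and the hydroxylase CYP86A8, at 1.35 (0.772 to 1.93) and 0.48 (0.193 to 0.724). The median of the cutin genes was -0.14.

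The 8 transcription factors of the MYB and NAC families that act on suberin genes had a median log2 ratio of -0.01, with none of the 4 that reached 1 FPKM called. The 3 core subunits of the fatty acid elongase (KCR1, PAS2 and CER10), which serve KCS2 and KCS20, were between -0.04 and -0.02. The 5 genes of phenylpropanoid supply, which provides the ferulate that ASFT uses, had a median of -0.10, and none was called. The 11 Casparian strip and endodermis markers, genes of the tissue that suberizes, all reached 1 FPKM, and none was called. Of these, 9 were above 0, their median was 0.05, and their summed level was 2360 FPKM in WT and 2520 in tcx2. The values of CASP2 and CASP4 lay outside their own intervals in both genotypes. The 5 root hair markers lay further from 0, each higher in tcx2 by value (0.20 to 0.51, median 0.29), and none was called. Their sum was 1930 FPKM in WT against 2600 in tcx2, of which PRP3 made up 1190 and 1700. Both PRP3 values lay outside their own intervals (577 to 1040 in WT and 752 to 1400 in tcx2). The part of either tissue in the values of the suberin genes was not tested beyond these levels.

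**Figure D2:**
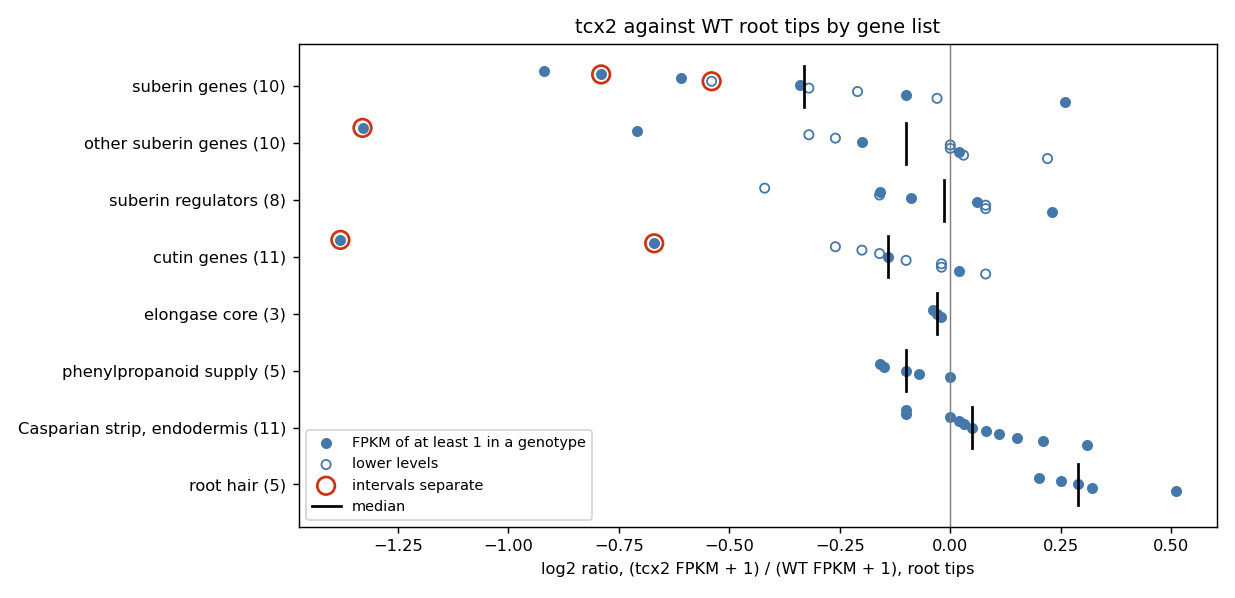
Log2 ratio of FPKM + 1, tcx2 over WT, in root tips (horizontal axis) for each gene of 8 lists (rows, number of genes in brackets). Filled points reached 1 FPKM in a genotype, open points did not, red rings mark separate intervals and black lines the medians, which are -0.33 for the 10 suberin genes and 0.05 for the endodermis markers.

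In the cells sorted from tcx2 roots, KCS20 was the only one of the 10 genes with at least 1 FPKM in at least 3 of the 12 libraries. The other 9 did not pass this filter, which 9979 of the 33560 genes passed. Over all 10 genes, 50 of 120 member values were above 0 (41.7%, against 52.5% of the values of all genes). Without KCS20, 38 of 108 member values were above 0 (35.2%), and 2 of these reached 1 FPKM, both of FAR5. By group, 4 of 27 values were above 0 under the label CYCD6:GFP and 5 under WOX5:GFP, against 13 for FEZ:FEZ-GFP and 16 for TMO5:3xGFP. The number of genes above 0 moved with this order in part. It was 14878 to 17712 under CYCD6:GFP and 15831 to 16638 under WOX5:GFP, against 16604 to 18043 for FEZ:FEZ-GFP and 18981 to 22170 for TMO5:3xGFP. Its part in the counts of the suberin genes was not tested. The Casparian strip and endodermis markers, summed over 11 genes, were between 0.272 and 4.33 FPKM in the sorted libraries. Single markers were above 0 in 1 (CASP4 and CASP5) to 11 (SCR and SGN3) of the 12 libraries, and CASP1 was at 0 in 9.

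KCS20 was detected in every sorted library. It was at 5.41, 7.99 and 5.53 FPKM in the libraries labelled CYCD6:GFP (mean 6.31 ± 1.46, SD, n = 3) and at 3.93, 6.51 and 3.49 in WOX5:GFP (4.64 ± 1.63). It was at 2.43, 1.13 and 5.77 in TMO5:3xGFP (3.11 ± 2.39) and at 3.13, 2.17 and 1.23 in FEZ:FEZ-GFP (2.18 ± 0.95). All CYCD6:GFP values were above all FEZ:FEZ-GFP values, and neighbors in the order of means overlapped. The populations did not differ past the threshold in limma's moderated F-test on log2(FPKM + 1) (adjusted p = 0.32 over all tested genes), where 4.28% of the tested genes did. Against the mean of the other 3, KCS20 differed by 0.86 in the CYCD6:GFP libraries (SE 0.39, limma adjusted p = 0.424) and by -0.77 in those labelled FEZ:FEZ-GFP (adjusted p = 0.717). The differences were -0.44 for the TMO5:3xGFP label (limma adjusted p = 0.575) and 0.34 for WOX5:GFP (adjusted p = 0.786). KCS20 was thus called in no population. Of the tested genes, 0% were called higher and 0.2% lower for CYCD6:GFP, 0.351% and 0.451% for WOX5:GFP, 0.22% and 0.02% for FEZ:FEZ-GFP, and 4.47% and 1.05% for TMO5:3xGFP. Without the libraries labelled TMO5:3xGFP and WOX5:GFP, whose reporter genes were highest under each other's label, CYCD6:GFP, whose own reporter gene was at 0, was 1.23 above FEZ:FEZ-GFP on the log2 scale (SE 0.52, limma adjusted p = 0.489). The exact two-sided permutation test over these 6 libraries gave p = 0.1, the smallest that 3 against 3 allows. Where limma weighted the libraries by their estimated quality, the F-test of KCS20 passed (adjusted p = 0.00397). In that fit 3985 genes passed, against 427 without weights. The largest weight, 5.65, fell on CYCD6:GFP library 2, which held the highest KCS20 value (7.99 FPKM).

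FAR5 was the other gene of the set that reached 1 FPKM. It was at 2.72, 5.5 and 0.14 FPKM in the libraries labelled TMO5:3xGFP, at 0, 0.414 and 0.279 in FEZ:FEZ-GFP, and at 0 in all 6 libraries labelled CYCD6:GFP or WOX5:GFP. The third TMO5:3xGFP library lay within the FEZ:FEZ-GFP range, so the groups overlapped. In a limma fit without the filter on low values, FAR5 was 1.5 higher in TMO5:3xGFP than in the mean of the others on the log2(FPKM + 1) scale (SE 0.42, adjusted p = 0.135), which did not pass. FAR4 and CYP86B1 were above 0 only in libraries 1 and 3 labelled TMO5:3xGFP, at 0.086 and 0.119 FPKM for FAR4 and at 0.143 and 0.198 for CYP86B1. Their adjusted p in the same fit was 0.136 each. In the filtered fit the root cap markers SMB and BRN1 were called higher in TMO5:3xGFP (log2 differences 1.43 and 1.84, limma adjusted p = 0.0132 and 0.00729). Of the tested genes, 4.47% were called higher there. SMB was at 3.19, 4.98 and 3.19 FPKM, against 7.24, 4.24 and 1.91 in FEZ:FEZ-GFP, and was called lower in WOX5:GFP (-1.43, limma adjusted p = 0.0428). BRN2, also a root cap marker, did not pass the filter. The part of root cap RNA in these values was not tested.

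The remaining 6 genes stayed below 1 FPKM in all 12 sorted libraries. ABCG20 was above 0 in 11 of them, with a lowest value of 0, a median of 0.212 and a highest of 0.76 FPKM in the third TMO5:3xGFP library. KCS2 was above 0 in 8, with a median of 0.214 and a highest value of 0.852 in the third FEZ:FEZ-GFP library, and it was below KCS20 in all 12. ASFT was above 0 in 4 sorted libraries and reached 0.206 FPKM. CYP86A1 was above 0 in 3, at up to 0.689 in the first FEZ:FEZ-GFP library, GPAT5 in 2, at up to 0.294 in the same library, and FAR1 in that library alone, at 0.0556. GPAT5, CYP86A1, CYP86B1, FAR1, FAR4, FAR5 and ASFT were listed at 0 in all libraries labelled WOX5:GFP. At these levels, and with depth unknown, differences between the populations were not detectable.

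**Figure D3:**
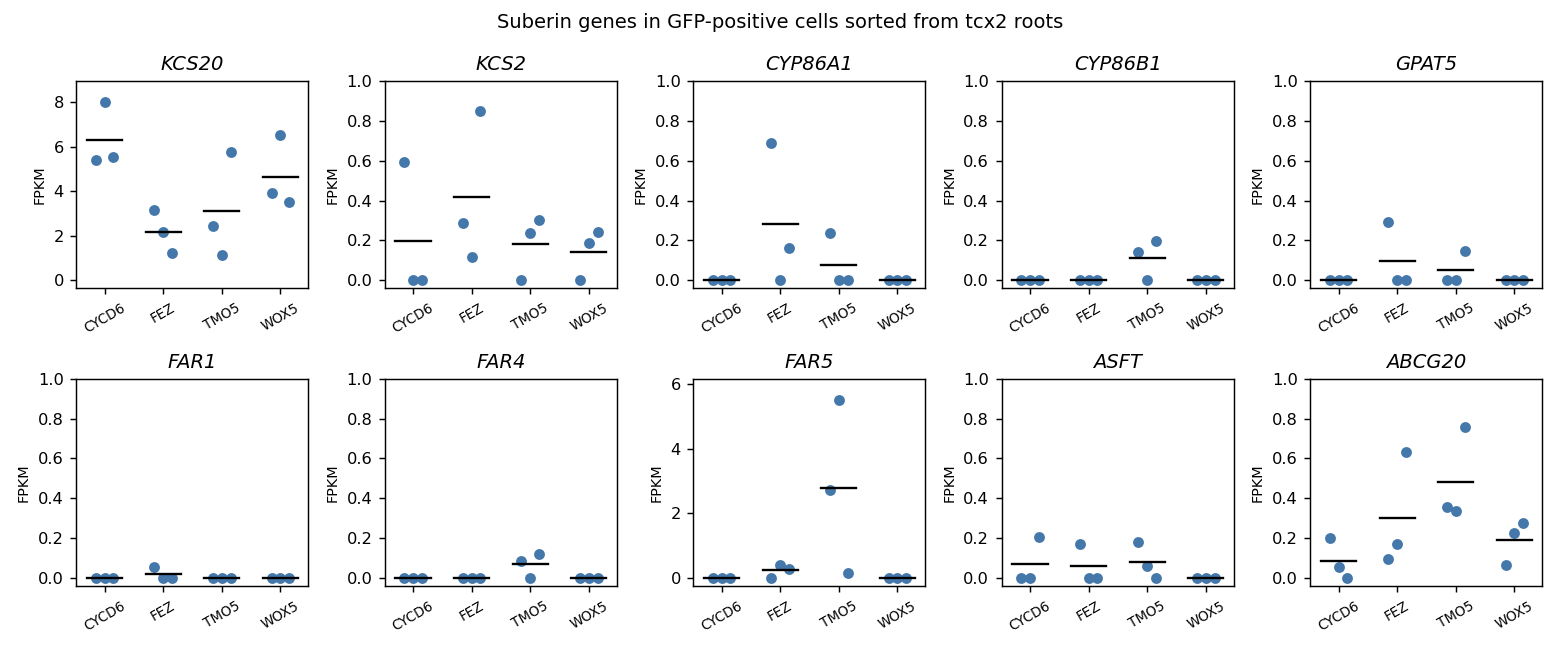
FPKM (vertical axes, linear from 0, scaled by panel) of the 10 suberin genes in the libraries sorted from tcx2 roots, by label (horizontal axes), with 1 point per library and the mean of 3 as a black line. KCS20 is above 1 FPKM in all 12 libraries, FAR5 passes 1 FPKM in 2 labelled TMO5:3xGFP, and the other 8 genes stay below 1 FPKM.

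Of the 5 genes of phenylpropanoid supply, PAL1 alone passed the F-test among the sorted populations. PAL1, a phenylalanine ammonia-lyase at the entry of the phenylpropanoid pathway, was at 10.7, 13.8 and 23.5 FPKM in the libraries labelled WOX5:GFP and at 7.58, 0.0612 and 0.0736 in TMO5:3xGFP. Its limma F-test gave an adjusted p of 0.0264, and it was called lower in TMO5:3xGFP (log2 difference -1.88, SE 0.51, adjusted p = 0.0322, where 1.05% of the tested genes were called lower). Without the second or the third TMO5:3xGFP library this call did not hold (limma adjusted p = 0.362 and 0.179), nor without the third WOX5:GFP library (adjusted p = 0.051), without the filter on low values (0.175) or with array weights (0.464). The F-test of PAL1 did not pass under a pseudocount of 0.1 (limma adjusted p = 0.0735), without the filter (0.304) or with array weights (0.0741). It also did not pass without TMO5:3xGFP library 2 (limma adjusted p = 0.138) or 3 (0.0814), or WOX5:GFP library 2 (0.0618) or 3 (0.0901). PAL2 was at 4.12, 4.6 and 7.51 FPKM in WOX5:GFP and at most 2.29 elsewhere, and its difference of 1.52 in WOX5:GFP did not pass (adjusted p = 0.06). C4H, the next enzyme of the pathway, differed by 1.24 there (adjusted p = 0.131). The 5 supply genes summed to 30.1 to 59.8 FPKM in WOX5:GFP and to at most 24.2 in the other libraries. ASFT was at 0 in all WOX5:GFP libraries, but values of 0 also occurred under each other label. It was above 0 in only 4 sorted libraries, at up to 0.206 FPKM, so its values of 0 were not particular to WOX5:GFP. XCP1, a xylem protease marker, was high in the WOX5:GFP libraries like the supply genes, at 0.755, 3.0 and 8.42 FPKM (log2 difference 1.80, limma adjusted p = 0.0328). The part of XCP1 in the supply genes' levels was not tested. The elongase subunits KCR1, PAS2 and CER10 showed no call, with F-test adjusted p values of 0.997, 0.956 and 0.69. Among the other suberin and cutin genes that passed the filter, ABCG1 differed by -0.97 on the log2 scale in WOX5:GFP (limma adjusted p = 0.212) and CYP86A2 by 1.13 in FEZ:FEZ-GFP (adjusted p = 0.16), and neither passed.

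**Figure D4:**
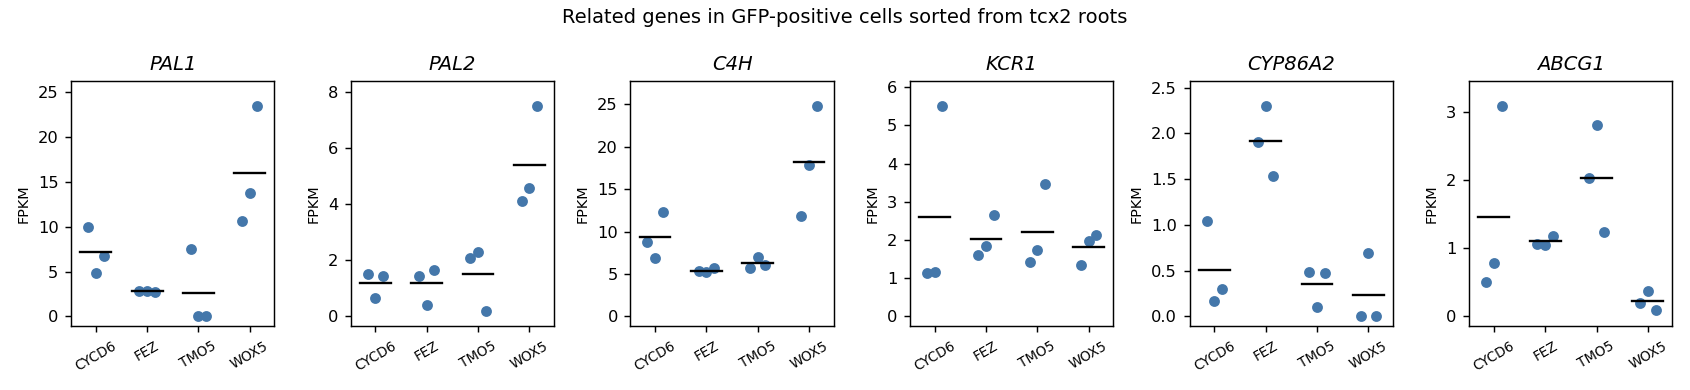
FPKM (vertical axes, linear from 0, scaled by panel) of 6 genes related to the suberin pathway in the libraries sorted from tcx2 roots, by label (horizontal axes), with 1 point per library and the mean of 3 as a black line. PAL1 is at 10.7 to 23.5 FPKM in the WOX5:GFP libraries and near 0 in 2 of the TMO5:3xGFP libraries, while KCR1 overlaps between all populations.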

How the data were processed

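Gene expression was measured by RNA-Seq with single-end reads of 100 bases. Per the labels and the study's methods, the authors mapped reads to TAIR10 with Bowtie or Bowtie2 and used Cufflinks, with Rsubread and edgeR also named, and tool versions were not given in the sources used here. The authors deposited FPKM in both tables: 1 value with an interval per genotype for root tips, and 1 value per library for the 12 sorted libraries. The tables came from different kits and were not compared. Levels of this kind carry no read counts, so no count test was run.

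For root tips, the log2 ratio of FPKM + 1 was computed. A gene was called when it reached 1 FPKM in a genotype and its intervals did not overlap, or, as an alternative, by a fold over 1.5. For sorted cells, genes with at least 1 FPKM in at least 3 libraries were kept, and log2(FPKM + 1) was fitted in R 4.3.3 with limma 3.58.1 (group means, variance trend, two-sided tests, Benjamini-Hochberg adjustment over all tested genes). Calls for a population needed a fold over 2 and an adjusted p below 0.05. The fit was tested on simulated data. Alternatives were a pseudocount of 0.1 or 5 (the latter in root tips), no filter, quantile normalization (root tips), median centring, rescaling without ribosomal RNA and organelle genes, array weights, no variance trend, a replicate block and leaving out each library. The fit on 2 populations alone was added after seeing the data. Python 3.11.15, pandas 2.3.3, numpy 2.4.6, Biopython 1.88 and matplotlib 3.10.9 were used for the rest.

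The members and gene lists were chosen with earlier results of these data known. All 10 members are named. Another listed gene is named when it was called, is the closest paralog of a member or is a marker that bears on a result. Sequences, motif positions and transcript identities come from the RefSeq genome and annotation (TAIR10.1). All 10 members matched it by locus identifier.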

Additional observations from a re-analysis of the deposited data

How the results depend on the processing

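For root tips, 5 alternatives were run (pseudocounts of 0.1 and 5, no filter, quantile normalization and median centring). A pseudocount or the filter cannot turn the direction of a log2 ratio, and the median subtracted in centring was 0.00. Quantile normalization could turn a direction, and all 10 genes kept theirs under it. With a pseudocount of 0.1 the median over the set was -1.02, and 584 genes were lower and 264 higher by a fold over 1.5 (319 and 138 as reported). With 5 the median was -0.10, 76 genes were lower and 43 higher, and 0 of the 10 passed. Quantile normalization left 2 of the 3 members past the fold. The fold call took in 457 genes and 3 of the 10, against 63 and 1 with separate intervals, and dropping the filter on low values gave 2 of the 10, GPAT5 being added.

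In sorted cells the F-test of KCS20 had an adjusted p of 0.181 to 0.541 with 1 library left out, 0.489 on the libraries labelled CYCD6:GFP and FEZ:FEZ-GFP alone (27 genes called), and 0.00397 with array weights, where the difference in CYCD6:GFP was 1.11 (adjusted p = 0.00415). Array weights ranged from 0.288 to 5.65, highest in CYCD6:GFP library 2, and the cause was not tested. None of the 76 alternative differences of KCS20 turned direction. Dropping the filter or the variance trend and adding the replicate block leave these differences unchanged, so those settings could not turn them. The F-test called 427 genes as reported, 245 with a pseudocount of 0.1, 171 without the filter, 3985 with array weights, and 157 (without TMO5:3xGFP library 2) to 474 with 1 library left out. CYCD6:GFP calls (20) were 60 with a pseudocount of 0.1, 1 without the filter, 12 with median centring, 36 with rescaling, 917 with array weights and 0 to 46 with 1 library left out. FEZ:FEZ-GFP calls (24) were 2 with a pseudocount of 0.1, 11 without the filter, 230 with array weights and 2 to 33 with 1 library left out. TMO5:3xGFP calls (551) were 293, 266 and 1426 in the same order, and 55 (without library 2) to 748. WOX5:GFP calls (80) were 19 without the filter, 126 with centring, 123 with rescaling, 231 with array weights and 17 to 99.

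Replicate numbers were shared across sorted groups, but same-numbered libraries did not deviate together (correlation -0.19 to 0.17 over 18 pairs, 2 over 0.1). With the replicate block the FEZ:FEZ-GFP calls were 15, the F-test called 358 genes and KCS20 had an adjusted p of 0.394. Depth is unknown in the sorted libraries, and the root tips have no replicate error.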
